A study of Mus musculus with 5 samples.

Results

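The genes described here build, carry and trim heparan sulfate, and were measured by messenger RNA sequencing in mouse LECs, the lymphatic endothelial cells that line the sinuses of a lymph node. They are the protein-coding genes whose symbols start with Hs3st, Hs6st, Ndst, Sulf, Sdc or Gpc followed by a digit, together with Hs2st1, Ext1, Ext2, Extl1, Extl2, Extl3, Glce, Hpse, Xylt1 and Xylt2. This rule, which uses names and no measured value, took 36 of the 27843 genes in the table. There were 10 core proteins (4 syndecans and 6 glypicans) and 26 enzymes.

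The study compared LECs of KO mice, which carry Ccl19 Cre and Rankl flox/flox, with LECs of WT mice, which carry Rankl flox/flox alone, so the floxed allele is common to both groups. There were 2 KO and 3 WT libraries, all from C57BL/6 mice aged 8 weeks. Ccl19 Cre acts in the Ccl19-expressing stromal cells of the node, which make the cytokine RANKL, and the sorted LECs carry its receptor RANK, so the comparison asks which LEC transcripts depend on RANKL from stroma. The sort kept cells with CD31 and podoplanin and without CD45 or TER119; the number of animals behind each library, and which of them were litter mates, is not stated in the labels.

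Heparan sulfate is a long sugar chain attached to core proteins on the cell surface and in the matrix. The chain is begun on a xylose, lengthened by the exostosins, and then modified in order by N-sulfation, epimerisation and sulfation at the 2-O, 6-O and 3-O positions. The sulfation pattern sets which proteins the chain binds, and on the endothelium of lymph nodes and lymphatic vessels these include chemokines such as CCL21 and growth factors such as VEGF-C and the FGFs.

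Total counts were 53301671 and 59725200 in KO libraries 1 and 2, and 70171307, 62247678 and 52839375 in WT libraries 1, 2 and 3. Spearman correlations of log2 CPM (read counts scaled to library size and by TMM) were 0.9824 between the KO libraries, 0.9902 to 0.9929 among the WT libraries and 0.9773 to 0.9801 between groups. The summed level of 9 LEC markers was 10499 to 11863 CPM in KO and 10398 to 11487 CPM in WT, and by edgeR 1 of the 9 rose and 2 fell. The sum joins opposite shifts, so it does not show that single markers held their level. Mmrn1, the marker that rose, had 5027 and 3055 CPM in KO against 1705, 1127 and 1292 CPM in WT. Lyve1, which was not called, had 2440 and 3662 CPM in KO against 4554, 4320 and 4716 CPM in WT. Prox1, the transcription factor of lymphatic fate, fell and had 884 and 851 CPM in KO against 1576, 1383 and 1416 CPM in WT, and Pdpn, which encodes the podoplanin of the sort, was not called and had 124 and 100.1 CPM in KO against 104, 88.4 and 97.2 CPM in WT. Tnfsf11, which encodes RANKL, had 9 and 0 reads in KO and 27, 13 and 9 reads in WT, and it was not called (edgeR quasi-likelihood test, Benjamini-Hochberg adjusted p = 0.407). The sorted LECs are not the cells in which Ccl19 Cre is active, so this gene checks the labels only weakly. Markers of LEC subsets differed between the groups. The summed level of 7 markers of the subcapsular sinus floor was 5347 to 7080 CPM in KO and 9650 to 11607 CPM in WT, and 4 of the 7 fell. The largest part of this sum was Vcam1, which was not called. Vcam1 had 3046 and 4483 CPM in KO against 5921, 5711 and 6336 CPM in WT. For 6 markers of the sinus ceiling the sum was 4569 to 5057 CPM in KO and 1643 to 2654 CPM in WT, and 5 of the 6 rose. For 6 markers of medullary and cortical sinuses it was 1897 to 2428 CPM in KO and 4517 to 4957 CPM in WT, and 4 of the 6 fell. Of these 6, Ptx3 went the other way, with 43.1 and 38.3 CPM in KO against 19.9, 29.4 and 18.2 CPM in WT. It was not called by edgeR, while DESeq2 and limma-voom each called 1 of the 6 higher. For 12 blood endothelial markers the sum was 3225 to 4184 CPM in KO and 2816 to 3142 CPM in WT, and 7 of the 12 rose. Most of this sum was Plvap, which was not called and overlapped between groups. Plvap had 2786 and 3627 CPM in KO against 2808, 2455 and 2800 CPM in WT. Without WT 3, edgeR called 1 floor marker lower, 0 ceiling markers higher, 1 medullary marker lower and 0 blood endothelial markers higher. Without WT 2 it called 2, 3, 1 and 4 in the same directions, and 1 medullary marker higher. Of the other cells a sort could hold, fibroblasts had a summed level over 8 markers of 372 to 824 CPM in KO and 263 to 383 CPM in WT, with 0 of the 8 called by edgeR, DESeq2 or limma-voom and 1 at an unadjusted p under 0.05. By edgeR, 1 of 6 smooth muscle and pericyte markers rose, and 1 of 7 macrophage markers rose and 2 fell. The macrophage marker that rose, Adgre1, had 15 and 20 reads in KO and 0, 0 and 0 in WT. Only its KO reads took Adgre1 past the filter on low counts. DESeq2 called 0 macrophage markers higher and limma-voom 1. The 5 T cell markers gave 0 calls by edgeR, DESeq2 or limma-voom and 1 unadjusted p under 0.05. Both tested adipocyte markers, Pparg and Car3, rose by edgeR. Car3 was scarce, with 164 and 46 reads in KO and 15, 4 and 3 in WT. DESeq2 called 2 adipocyte markers higher and limma-voom 1. The other adipocyte markers were too low to be tested: Adipoq had 4 and 0 reads in KO and 0, 0 and 0 in WT. Plin1 had 3 and 11 reads in KO and 6, 3 and 2 in WT. Mast cell markers were too low to be tested. In such bulk libraries, fewer cells of a type and less RNA per cell cannot be told apart, and the part of these subset shifts in the changes described next was not tested.

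In KO LECs, 4 of the 7 genes for 3-O-sulfotransferases, the N-sulfotransferase Ndst1, the 6-O-sulfotransferase Hs6st1 and the core proteins Sdc1 and Gpc1 fell, and the 3-O-sulfotransferase Hs3st1 rose. The enzymes that begin and lengthen the chain, the epimerase and the 2-O-sulfotransferase gave no call in the main edgeR fit. Xylt1, 1 of the xylosyltransferases, was close to the threshold there. DESeq2 called Xylt1 lower, as did edgeR without the filter on low counts and edgeR in its newer form, while limma-voom did not. Of the 36 genes, 33 passed the filter on low counts. By the edgeR quasi-likelihood test with Benjamini-Hochberg adjusted p under 0.05, 9 of the 33 (27.3%) were called, against 7.24% of the 15874 genes tested. Of these, 8 (24.2%) were lower, against 3.99% of all genes tested, and 1 (3.0%) was higher, against 3.25% of all genes tested. Both KO libraries lay outside the WT range for 16 of the 33 genes (48.5%), against 45.4% of all genes tested. They lay below all 3 WT libraries for 15 of the 33 genes (45.5%), against 22.5% of all genes tested, and above them for 1 (3.0%), against 22.9%. In the remaining 17 genes the groups overlapped. The median log2 fold change was -0.10 over the 33 genes and -0.0015 over all genes tested. Among all called genes, 44.9% were higher in KO, and this share was 55.3% when gene length and GC content were corrected for, a setting under which 6 of the 9 calls here were made. Reads on the 36 genes made up 0.181% and 0.173% of the KO libraries, against 0.234%, 0.216% and 0.221% of the WT libraries.

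**Figure D1:**
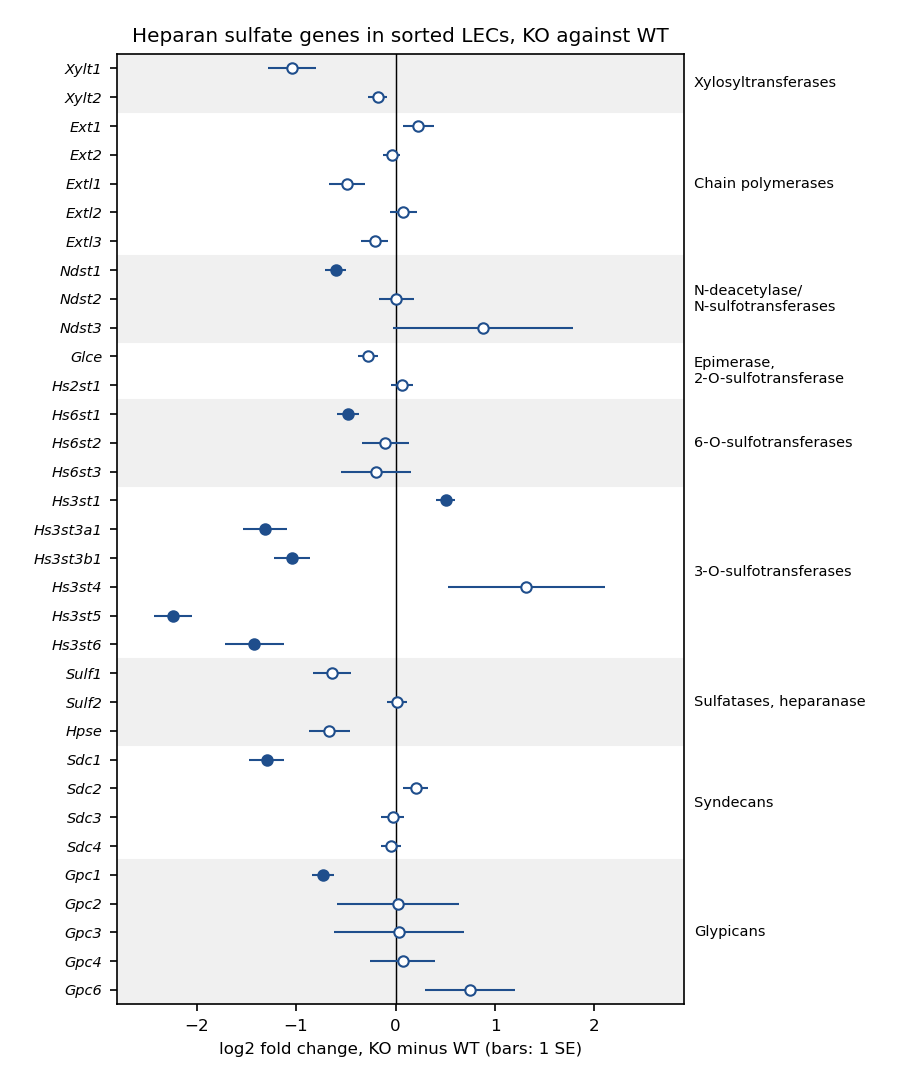
Log2 fold change, KO minus WT, of the 33 tested heparan sulfate genes, grouped by role, with bars of 1 standard error (2 KO and 3 WT libraries); filled points passed an adjusted p under 0.05 and open points did not. The 9 filled points run from Hs3st5 at -2.24 to Hs3st1 at 0.51, and 8 of them lie left of 0.

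The core proteins carry the chains. Syndecan-1, encoded by Sdc1 (chromosome 12, 8771323 to 8793715, plus strand, mm10), is a transmembrane proteoglycan known from epithelium and plasma cells as well as endothelium. It had 54.8 and 60.1 CPM in KO, against 169, 112 and 142 CPM in WT. Both KO libraries lay below all WT libraries, and Sdc1 fell by 1.29 ± 0.18 on the log2 scale (SE, 2 KO and 3 WT libraries; edgeR quasi-likelihood test, Benjamini-Hochberg adjusted p = 0.0165). The call ended only when WT 3 was left out, among the 5 libraries left out in turn, with a log2 fold change of -1.29. WT 1, the library highest in Sdc1, was also highest in the plasma cell transcripts Igkc, at 15.5 and 11.5 CPM in KO and 96.9, 5.54 and 9.58 CPM in WT, and Jchain, at 4.64 and 1.86 CPM in KO and 23.6, 2.43 and 3.25 CPM in WT. The summed level of 11 plasma and B cell markers was 55.0 to 62.9 CPM in KO and 28.3 to 158 CPM in WT, and 0 of the 11 were called by edgeR or limma-voom, 1 by DESeq2 and 1 at an unadjusted p under 0.05. With WT 1 left out the log2 fold change of Sdc1 was -1.14 (edgeR, adjusted p = 0.037, within a range of 6.79e-10 to 0.118 over the 17 alternatives). The summed level of 6 epithelial markers was 6.41 to 36.0 CPM in KO and 2.47 to 10.8 CPM in WT, and 1 of the 6 rose; the part of these cells in the Sdc1 result was not tested.

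The other syndecans gave no call. Sdc4, a syndecan found on many adherent cells, had 201 and 191 CPM in KO against 221, 189 and 195 CPM in WT, a log2 fold change of -0.04 ± 0.10 (SE). Sdc3 had 130.3 and 109 CPM in KO against 117, 133 and 115 CPM in WT, and Sdc2, a syndecan of mesenchymal and endothelial cells, had 18.0 and 21.6 CPM in KO against 16.5, 18.2 and 16.9 CPM in WT. The groups overlapped in all 3 of these genes. On the CPM per kb scale, which divides by exon length so that genes can be compared, Sdc4 was at 77.0 in KO and 79.3 in WT and Sdc1 at 15.1 in KO and 37.0 in WT (means). Sdc1 therefore made up 12.0% and 13.7% of the syndecan CPM per kb in KO, against 28.6%, 22.4% and 27.0% in WT.

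Glypicans are held to the membrane by a lipid anchor. Gpc1 (chromosome 1, 92831645 to 92860779, plus strand), the glypican that made up 93.5% to 98.1% of glypican CPM per kb in every library, had 187 and 227 CPM in KO against 355, 328 and 343 CPM in WT. The groups were well apart, and Gpc1 fell by 0.73 ± 0.11 on the log2 scale (SE; edgeR quasi-likelihood test, Benjamini-Hochberg adjusted p = 0.0204). Total glypican CPM per kb was 38.7 and 45.3 in KO, against 71.1, 64.8 and 68.3 in WT. The call was lost when any of WT 1, WT 2 or WT 3 was left out, at log2 fold changes of -0.70, -0.76 and -0.73, and with the correction for length and GC content, at -0.68. About 18.0% of the 50-base windows of Gpc1 are shared with the antisense gene Ankmy1, which had 13 and 2 reads in KO and 11, 8 and 1 reads in WT. The remaining glypicans were scarce. Gpc4 had 3.78 and 2.46 CPM in KO against 3.45, 2.03 and 3.42 CPM in WT, Gpc3 and Gpc6 were at or under 2.23 CPM in every library and Gpc2 at or under 0.256 CPM, with no call. Gpc5 was not tested, with 0 reads in both KO libraries and 6, 0 and 0 reads in WT.

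Synthesis begins with xylose. Xylt1 and Xylt2 encode the xylosyltransferases that attach it to a serine of the core protein. Xylt1 had 6.24 and 4.23 CPM in KO against 13.0, 8.92 and 10.3 CPM in WT, a log2 fold change of -1.04 ± 0.24 (SE), and missed the threshold (edgeR quasi-likelihood test, Benjamini-Hochberg adjusted p = 0.0504). The groups did not overlap, and Xylt1 was called in 7 of the 17 alternatives, DESeq2 among them. The 7 include the threshold of 0.1 on the same fit, a call that this adjusted p fixed in advance. Xylt2, at 20.4 and 19.2 CPM in KO against 22.7, 22.7 and 21.9 CPM in WT, had a log2 fold change of -0.18 ± 0.10 (SE) and was not called. It made up 88.8% and 91.7% of xylosyltransferase CPM per kb in KO, against 80.9%, 86.1% and 83.8% in WT.

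The chain polymerase is formed by Ext1 and Ext2, and Extl3 adds the first N-acetylglucosamine. None of the 5 exostosin genes was called by edgeR, DESeq2 or limma-voom, and 1 of them, Extl1, had an unadjusted p under 0.05. Ext2, the most abundant of the 5 per kb, had 280 and 267 CPM in KO against 280, 281 and 282 CPM in WT, a log2 fold change of -0.04 ± 0.08 (SE). Ext1 had 69.4 and 52.9 CPM in KO against 45.3, 58.5 and 52.6 CPM in WT, and Extl3 had 42.6 and 33.3 CPM in KO against 40.1, 48.5 and 43.2 CPM in WT. In both genes the groups overlapped. Extl1 was lower in both KO libraries than in all WT libraries, at 31.0 and 34.2 CPM in KO and 51.8, 34.8 and 50.2 CPM in WT, with WT 2 close to KO 2. Extl2 had 28.2 and 30.6 CPM in KO and 32.4, 24.6 and 26.6 CPM in WT.

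N-deacetylase/N-sulfotransferases replace the acetyl group of glucosamine with sulfate, the step on which later modifications build. Ndst1 (chromosome 18, 60684494 to 60748650, minus strand), the main member in endothelium, had 73.7 and 66.0 CPM in KO against 112, 110 and 95.8 CPM in WT. Both KO libraries lay below all WT libraries, and Ndst1 fell by 0.60 ± 0.11 on the log2 scale (SE; edgeR quasi-likelihood test, Benjamini-Hochberg adjusted p = 0.0266). The call was lost when WT 1, WT 2 or WT 3 was left out, at log2 fold changes of -0.56, -0.58 and -0.67. Ndst2 had 31.8 and 22.8 CPM in KO against 23.5, 27.3 and 30.6 CPM in WT, a log2 fold change of 0.01 ± 0.18 (SE), and overlapped between groups. Ndst3 was at or under 0.694 CPM in every library and Ndst4 was not tested, with 1 read in each KO library and 0, 5 and 2 reads in WT. Ndst1 made up 55.7% and 61.2% of the family CPM per kb in KO, against 72.2%, 68.8% and 63.2% in WT.

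Glce encodes the epimerase that turns glucuronic into iduronic acid. It had 22.0 and 21.5 CPM in KO against 25.2, 26.0 and 28.2 CPM in WT, a log2 fold change of -0.28 ± 0.10 (SE) that was not called (edgeR quasi-likelihood test, Benjamini-Hochberg adjusted p = 0.136). Hs2st1, the only 2-O-sulfotransferase of heparan sulfate, had 27.4 and 27.9 CPM in KO against 25.2, 29.2 and 24.7 CPM in WT, and the groups overlapped. Of the 6-O-sulfotransferases, Hs6st1 (chromosome 1, 36068400 to 36106446, plus strand) held 89.2% to 93.4% of the family CPM per kb in every library. Hs6st1 had 71.1 and 87.1 CPM in KO against 109, 109 and 113 CPM in WT. It fell by 0.48 ± 0.11 on the log2 scale (SE; edgeR quasi-likelihood test, Benjamini-Hochberg adjusted p = 0.0472), the called gene closest to the threshold. The call was lost when KO 1, WT 1, WT 2 or WT 3 was left out, at log2 fold changes of -0.34, -0.49, -0.48 and -0.46, and with the correction for length and GC content, at -0.41. Hs6st2 had 5.64 and 8.35 CPM in KO against 8.25, 5.89 and 8.39 CPM in WT, and Hs6st3 had 1.26 and 1.41 CPM in KO against 2.03, 1.11 and 1.44 CPM in WT. Neither was called.

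The 3-O-sulfotransferases act last and add the rarest sulfate. Hs3st1 makes the site that binds antithrombin, while the enzymes of Hs3st3a1 and Hs3st3b1 make a site known for binding glycoprotein D of herpes simplex virus, and that of Hs3st5 can make both kinds. Of the 7 genes, 6 were tested, 4 fell, 1 rose and 1, Hs3st4, was not called. The median log2 fold change of the 6 was -1.18. Hs3st2 was not tested, with 0 reads in both KO libraries and 0, 0 and 6 reads in WT, and Hs3st4 was at or under 0.309 CPM in every library.

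The promoter windows of the 4 genes of this family that had an entry in RefSeq and gave a call are shown because these neighbours in function moved in different directions. Each is the 250 bases before the start in RefSeq (GRCm38.p6, the build of mm10), written 5′ to 3′ on the strand of the gene, with capitals for each match, on either strand, of an NF-kB type motif, GGG followed by any 5 bases and CC. Hs3st3a1 lies at chr11:64435082-64435331 on the plus strand, Hs3st3b1 at chr11:63922285-63922534 on the minus strand, Hs3st5 at chr10:36506557-36506806 on the plus strand and Hs3st1 at chr5:39644632-39644881 on the minus strand. The Hs3st1 window lies inside the gene as annotated in GENCODE M21 (39613935 to 39755475), so it precedes a start internal to that annotation. The windows of Hs3st3a1, Hs3st3b1 and Hs3st5 lie at or near the GENCODE starts of their genes.
Hs3st3a1: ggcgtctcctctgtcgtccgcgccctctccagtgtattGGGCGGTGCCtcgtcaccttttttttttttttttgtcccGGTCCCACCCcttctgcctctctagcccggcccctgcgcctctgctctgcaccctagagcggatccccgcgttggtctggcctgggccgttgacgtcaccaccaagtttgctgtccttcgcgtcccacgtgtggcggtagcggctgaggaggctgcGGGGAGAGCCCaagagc
Hs3st3b1: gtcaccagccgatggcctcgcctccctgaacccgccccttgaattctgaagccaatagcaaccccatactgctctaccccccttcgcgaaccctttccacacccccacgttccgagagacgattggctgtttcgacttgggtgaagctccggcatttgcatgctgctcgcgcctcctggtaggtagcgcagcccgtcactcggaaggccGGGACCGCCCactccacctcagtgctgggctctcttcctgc
Hs3st5: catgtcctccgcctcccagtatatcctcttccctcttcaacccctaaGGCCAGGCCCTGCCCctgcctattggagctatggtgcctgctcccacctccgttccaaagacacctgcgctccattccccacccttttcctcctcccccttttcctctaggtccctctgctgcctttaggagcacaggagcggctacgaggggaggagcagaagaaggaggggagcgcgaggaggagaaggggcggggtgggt
Hs3st1: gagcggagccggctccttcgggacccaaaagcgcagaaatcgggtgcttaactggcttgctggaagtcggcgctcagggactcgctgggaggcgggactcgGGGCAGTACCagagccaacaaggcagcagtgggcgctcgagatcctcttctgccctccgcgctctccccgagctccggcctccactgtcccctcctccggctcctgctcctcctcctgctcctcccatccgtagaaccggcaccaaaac
The windows hold 4, 1, 2 and 1 matches, overlapping matches counted separately, and the window of Hs3st1, the gene that rose, holds 1 as does that of Hs3st3b1, which fell. The motif is common: 45.8% of all 32851 windows of this length hold it, as do 24 of the 30 windows of 26 heparan sulfate genes with an entry. The median GC content over all windows was 52.4%, against 64.0%, 62.4%, 62.0% and 66.0% in these 4. A GC box, GGGCGG on either strand, was found in 32.7% of all windows and a TATA box, TATAAA, in 12.4%. A match describes letters in the window and is not evidence that a factor binds there.

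Hs3st5 (chromosome 10, 36506814 to 36834397, plus strand) had 1.41 and 1.53 CPM in KO, against 6.59, 6.74 and 7.45 CPM in WT. It was the largest fall among the 33 tested genes, 2.24 ± 0.19 on the log2 scale (SE; edgeR quasi-likelihood test, Benjamini-Hochberg adjusted p = 0.0095), and KO was at 21.2% of the WT mean. Among the 5 libraries left out in turn, its call was lost only without WT 3, at a log2 fold change of -2.18. Hs3st6 (chromosome 17, 24752988 to 24758684, plus strand), another member of the family, had 1.53 and 0.980 CPM in KO against 3.77, 3.01 and 3.29 CPM in WT. It fell by 1.42 ± 0.29 on the log2 scale (SE; edgeR quasi-likelihood test, Benjamini-Hochberg adjusted p = 0.0387). This call was lost when KO 2, WT 1, WT 2 or WT 3 was left out, at log2 fold changes of -1.13, -1.32, -1.49 and -1.44. Both genes are scarce, so their values rest on fewer reads than those of the other called genes.

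Hs3st3a1 and Hs3st3b1 lie on chromosome 11, 513.0 kb apart, and encode near-copies. Hs3st3a1 (64435332 to 64522841, plus strand) had 5.68 and 9.37 CPM in KO against 18.7, 17.5 and 19.9 CPM in WT, and fell by 1.31 ± 0.22 on the log2 scale (SE; edgeR quasi-likelihood test, Benjamini-Hochberg adjusted p = 0.024). Hs3st3b1 (63885792 to 63922290, minus strand) had 38.4 and 57.0 CPM in KO against 107, 88.0 and 100.3 CPM in WT, and fell by 1.04 ± 0.18 (SE; edgeR quasi-likelihood test, Benjamini-Hochberg adjusted p = 0.0247). In both genes KO 1 was the lower of the KO libraries and no KO library reached the lowest WT library. Both calls were lost when WT 1, WT 2 or WT 3 was left out, at log2 fold changes of -1.31, -1.36 and -1.27 for Hs3st3a1 and -0.98, -1.12 and -1.03 for Hs3st3b1.

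Reads of this pair can be exchanged in counting. Their coding sequences are 87.4% identical over 1109 aligned bases, against 57.1% to 71.8% for the other pairs of the family, and share a run of 401 identical bases. The first 100 bases of that run, longer than the 50-base reads, are shown because a read from them could come from either gene.
Shared run: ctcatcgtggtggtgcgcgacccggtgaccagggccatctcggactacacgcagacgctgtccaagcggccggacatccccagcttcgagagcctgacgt
Of the 50-base windows of Hs3st3a1, 42.8% occur in another gene, most of them (32.1%) in the antisense gene F930015N05Rik, which had 6 and 11 reads in KO and 18, 18 and 20 reads in WT. For Hs3st3b1 the share was 8.56%, all in Hs3st3a1. With the reads of the 2 genes summed and tested as 1 feature, an alternative chosen after seeing the data, the pair fell by 1.08 ± 0.18 on the log2 scale (SE; edgeR quasi-likelihood test, Benjamini-Hochberg adjusted p = 0.0241).

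Hs3st1 (chromosome 5, 39613935 to 39755475, minus strand) moved in the other direction, with 84.1 and 87.3 CPM in KO against 56.3, 65.9 and 59.0 CPM in WT. It rose by 0.51 ± 0.10 on the log2 scale (SE; edgeR quasi-likelihood test, Benjamini-Hochberg adjusted p = 0.0316), to 142% of the WT mean, and both KO libraries lay above all WT libraries. The call was lost when WT 1, WT 2 or WT 3 was left out, at log2 fold changes of 0.46, 0.57 and 0.49, and with the correction for length and GC content, at 0.45. Of the family's CPM per kb, Hs3st1 made up 77.8% and 72.1% in KO, against 45.0%, 53.1% and 47.2% in WT. Hs3st3b1 made up 16.1% and 21.4% in KO, against 38.8%, 32.2% and 36.4% in WT. The family total differed less, at 48.5 and 54.3 CPM per kb in KO and 56.0, 55.7 and 56.1 CPM per kb in WT. These shares are a description of the 5 libraries and were not tested.

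**Figure D2:**
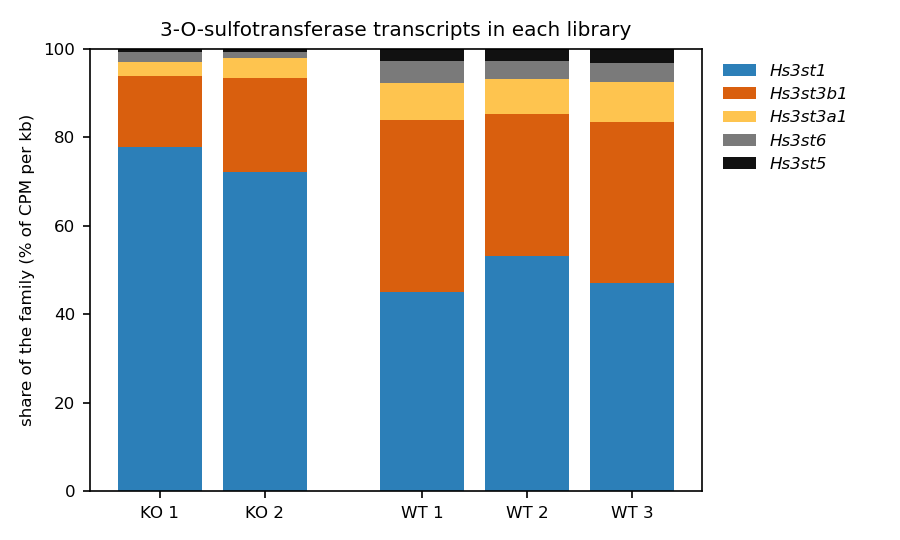
Share of the 3-O-sulfotransferase family's CPM per kb held by each of 5 genes, in the 2 KO libraries and the 3 WT libraries; Hs3st2 and Hs3st4 together are too few to show. Hs3st1 holds 72.1% to 77.8% in KO and 45.0% to 53.1% in WT.

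Outside the cell, the sulfatases of Sulf1 and Sulf2 remove 6-O-sulfates and the heparanase of Hpse cuts the chain. Sulf1 had 96.8 and 71.8 CPM in KO against 150.3, 105 and 138 CPM in WT, a log2 fold change of -0.64 ± 0.19 (SE), and was not called (edgeR quasi-likelihood test, Benjamini-Hochberg adjusted p = 0.0885), although DESeq2 called it. Sulf2 had 147 and 122 CPM in KO against 134, 135 and 131 CPM in WT, and the groups overlapped. Hpse had 77.7 and 132 CPM in KO against 161, 163 and 176 CPM in WT, a log2 fold change of -0.66 ± 0.21 (SE) that was not called (edgeR quasi-likelihood test, Benjamini-Hochberg adjusted p = 0.101). The KO libraries differed widely: the log2 fold change was -0.34 without KO 1 and -1.10 without KO 2, and edgeR called Hpse without KO 2. DESeq2 called Hpse with all libraries.

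**Figure D3:**
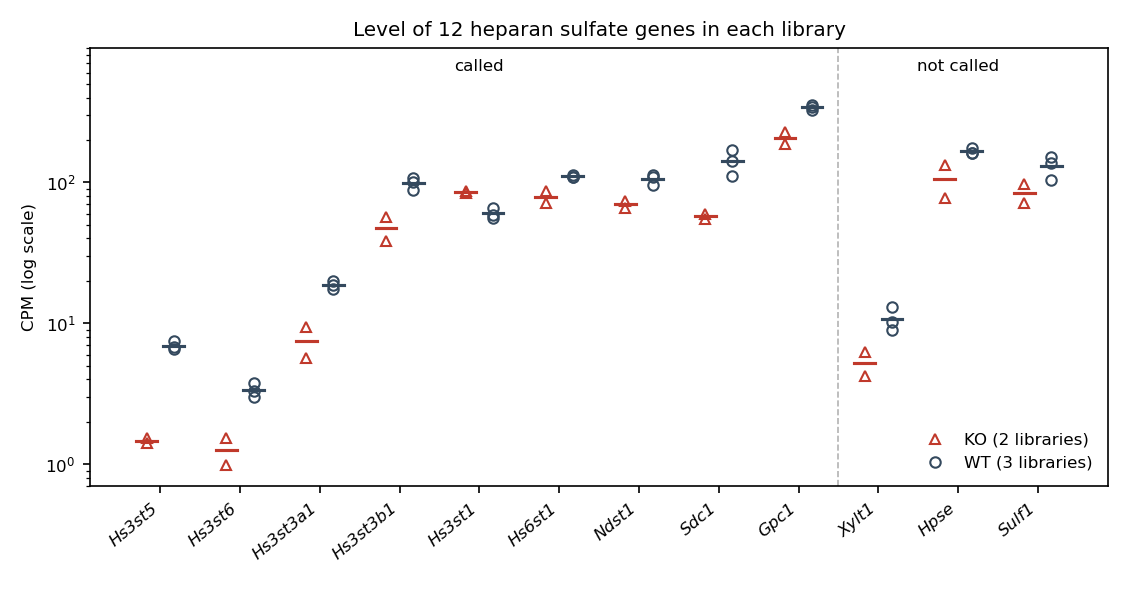
CPM (log scale) of 12 heparan sulfate genes in each of 2 KO libraries (triangles) and 3 WT libraries (circles), with bars at group means; the 9 called genes are left of the dashed line and 3 genes that were not called are right of it. In each of the 9 called genes every KO point lies outside the WT range, above it for Hs3st1 and below it for the other 8.

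Leaving out libraries in turn changed how many of these genes were called, which was 9 with all libraries. Without KO 1 or KO 2 there were 10 and 9 calls, while 10.4% of all genes tested were called in either fit. Without WT 1, WT 2 or WT 3 there were 2, 2 and 0 calls, while 1.74%, 1.12% and 0.0705% of all genes tested were called, so the count over all genes moved the same way. Hs3st5 and Sdc1 were the genes called without WT 1 or WT 2. Without WT 3, edgeR called 0 of the 33 genes and 11 of all genes. In that fit 12 of the 33, and 2975 of all 15613 genes tested, had an unadjusted p under 0.05. The sign of all 9 fold changes was the same in every fit with a library left out.

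**Figure D4:**
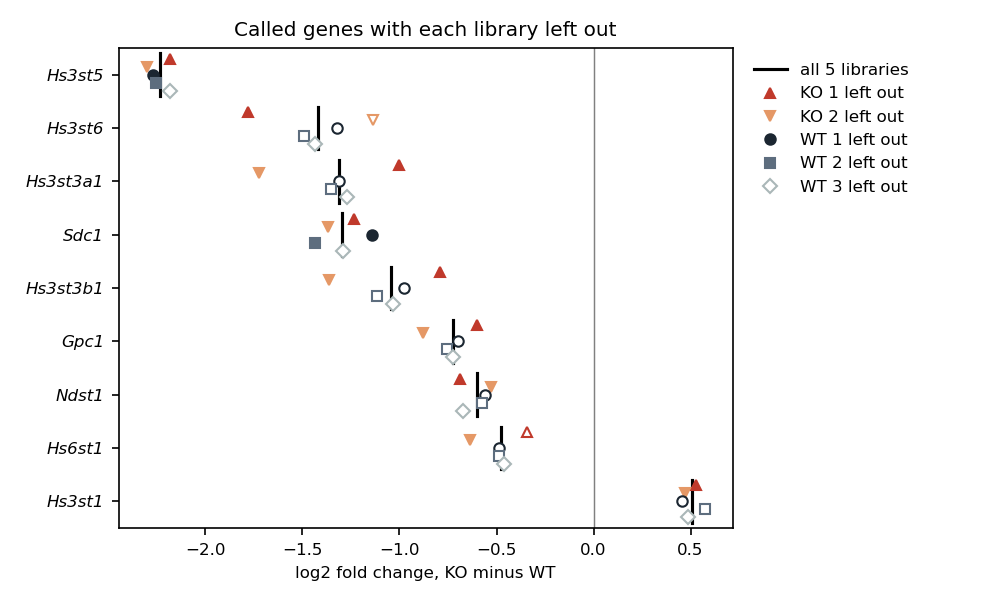
Log2 fold change, KO minus WT, of the 9 called genes with each of the 5 libraries left out; the black line is the value with all libraries, filled symbols had an adjusted p under 0.05 and open symbols did not. The values keep their sign throughout, and the open symbols come mostly from fits with a WT library left out.

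Other parts of the pathway were read against the 7.24% of all genes tested that edgeR called. It called 6.67% of the linkage and precursor list, a share near that of all genes, 28.6% of the other core proteins, 20.0% of the chondroitin and dermatan list and 12.5% of the growth factor list, each list holding 16 tested genes or fewer. Of 15 genes for the linkage region and its precursors, Papss2, which makes the sulfate donor PAPS, fell by edgeR and by limma-voom. DESeq2 had 2 lower genes, 0 of the 15 were higher by any of the 3 tools, and 2 were higher at an unadjusted p under 0.05. Papss2 had 36.6 and 53.8 CPM in KO against 100.04, 89.5 and 103 CPM in WT, and fell by 1.11 ± 0.17 on the log2 scale (SE; edgeR quasi-likelihood test, Benjamini-Hochberg adjusted p = 0.0204). The list's median log2 fold change was -0.02. Of 7 other core proteins that can carry heparan sulfate, Tgfbr3 (betaglycan) and Agrn (agrin, of basement membranes) fell and 0 rose by edgeR, with 2 higher at an unadjusted p under 0.05 and 1 higher by DESeq2. Tgfbr3 had 416 and 516 CPM in KO against 833, 696 and 759 CPM in WT, and Agrn had 228 and 186 CPM in KO against 293, 314 and 292 CPM in WT. Hspg2 (perlecan), at 160 and 99.2 CPM in KO and 283, 286 and 208 CPM in WT, and Col18a1, at 528 and 292 CPM in KO and 143, 234 and 176 CPM in WT, did not pass the threshold. The median of these 7 was -0.53.

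Of 15 tested genes for chondroitin and dermatan sulfate, the related chains built on the same linkage, Chst15, Csgalnact1 and Chst7 fell. In this list 0 genes were higher by edgeR, DESeq2 or limma-voom, 1 was higher at an unadjusted p under 0.05, and the median was -0.18. Chst15, a sulfotransferase of chondroitin, had 81.7 and 77.0 CPM in KO against 135, 126 and 127 CPM in WT. Csgalnact1, which starts the chondroitin chain, had 65.0 and 71.8 CPM in KO against 97.8, 97.2 and 102 CPM in WT. Of 8 genes for lysosomal breakdown of heparan sulfate, none was called by edgeR or limma-voom and 1 was called by DESeq2, 3 had an unadjusted p under 0.05, and the median was -0.19. Of 16 growth factors and receptors that depend on heparan sulfate, Kdr (VEGFR2) fell and Pdgfb rose, with a list median of 0.13. Kdr had 1202 and 1152 CPM in KO against 2026, 1909 and 1793 CPM in WT, and Pdgfb had 99.9 and 84.0 CPM in KO against 33.8, 60.1 and 43.8 CPM in WT. These calls too depended on the WT libraries: over the 5 pathway lists, 1 gene (lower, chondroitin list) was called without WT 1, 1 gene (higher, growth factor list) without WT 2 and 0 genes without WT 3. With the correction for length and GC content, the other core proteins had 0 lower genes and 1 higher, and the growth factor list had 0 in either direction.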

How the data were processed

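Per the labels' protocols, RNA of frozen sorted LECs was turned into amplified full-length cDNA (SMART-Seq), tagmented (Nextera XT), amplified again and read as single 50-base reads. These kits do not mark strand, and the reads carry no molecular identifiers, so they are not independent molecules. The authors deposited raw read counts per Ensembl gene, per the file headers, in 1 table of 27843 genes and 5 libraries. The submitters' processing notes name mm10, HTSeq 0.6.1, Bowtie2 2.1.0, TopHat2 2.0.14 and bcl2fastq 2.17.1.14. Their settings and how multi-mapping reads were treated were not given in the sources used here.

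Of the genes, 27648 were matched by identifier to GENCODE M21 (same build). Counts were tested with edgeR 4.0.16 in R 4.3.3 (filterByExpr with minimum count 10, TMM, robust legacy quasi-likelihood F test, KO against WT, 15874 genes, Benjamini-Hochberg adjusted p under 0.05), with SE the log2 fold change divided by the root of F. Library totals were 52839375 to 70171307, so 1 CPM was 52.8 to 70.2 reads. P-values weigh the group difference against the spread between these libraries, which the test moderates over all genes tested. In counts simulated in the same design for 15874 genes, the test recovered 83.7% of 98 genes given a log2 change of 2. It recovered 52.6% of 95 genes given 1 and called 0.07% of 15243 genes left unchanged. These rates describe the simulated counts, not how calls hold in the real libraries.

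Genes and lists were chosen with earlier results of these data known. Named are the 36 members by the rule, up to 4 genes with the smallest p of each pathway list, and Tnfsf11. Prox1, Pdpn, Mmrn1, Lyve1, Ptx3, Plvap, Pparg, Car3, Adipoq, Plin1, Igkc and Jchain were chosen from the marker lists after their values were seen. Adgre1 and Vcam1 were chosen in the same way. Promoter sequences are from RefSeq and the shared coding run from GENCODE M21 transcripts. Protein sequences were not used here. Bpnt2 was matched through its annotation name Impad1, and Mcpt4 was not matched. Alternatives were RLE factors, library totals alone, no filter, 1 CPM in 2 libraries, DESeq2 1.42.0, limma 3.58.1 voom, edgeR without robust estimation and in its newer form, a threshold of 0.1, an offset for length and GC content (loess span 0.5), the replicate block with and without that offset, each library left out, and the summed pair.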

Additional observations from a re-analysis of the deposited data

How the results depend on the processing

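All 9 called heparan sulfate genes kept the sign of their log2 fold change under all 17 alternatives. The threshold of 0.1 reused the main fit, and edgeR without robust estimation gave the same fold changes, so neither checks the sign. Over all genes, 516 rose and 634 fell with the settings of the report; DESeq2 gave 1254 and 1466, and a threshold of 0.1 gave 1188 and 1358. The offset for length and GC content gave 330 lower genes by edgeR and 0 higher heparan sulfate genes. Under it, 13 heparan sulfate genes and 3824 of the 15874 genes tested had an unadjusted p under 0.05 in either direction. With each library left out, called genes ranged from 2 to 784 higher and from 9 to 1125 lower. Called heparan sulfate genes ranged from 0 to 1 higher and from 0 to 9 lower. The highest counts over all genes came from fits without a KO library, and the lowest from the fit without WT 3. All these fits had fewer libraries than the main fit, whether calls went up or down, and the cause was not tested.

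With the replicate number as a block, edgeR called 0 genes higher and 0 lower, 0 heparan sulfate genes included. In that fit 2808 genes and 12 heparan sulfate genes had an unadjusted p under 0.05. The block with the offset called 0 higher and 3 lower, with 0 heparan sulfate genes in either direction. There, 2574 genes and 11 heparan sulfate genes had an unadjusted p under 0.05. Only numbers 1 and 2 occur in both groups. The labels do not say that a number marks a shared litter or day, so the numbers were not taken to pair the libraries. The deviations of same-numbered libraries correlated at 0.048 and -0.052. With 2 KO libraries the KO deviations mirror each other, so these values are not separate checks and cannot decide whether libraries are paired.

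Among genes that were not called, signs turned in these fits, and the cause was not tested. Gpc3 was at -0.21 with limma-voom, -0.025 with the newer edgeR form, -0.36 with the block and -0.39 with block and offset. Sulf2 was at -0.0047 and Gpc2 at -0.14 with the block, and Gpc2 at -0.13 with block and offset. With the offset, Hs6st2 was at 0.030, Sdc3 at 0.043 and Ext2 at 0.083, and with block and offset at 0.11, 0.022 and 0.10. With a library left out, the ranges were -0.26 to 0.22 for Ndst2, -0.086 to 0.030 for Sdc4, -0.38 to 0.070 for Hs6st3, -0.32 to 0.28 for Gpc2, -1.27 to 0.70 for Gpc3, -0.17 to 0.0905 for Sdc3, -0.0043 to 0.20 for Extl2, -0.28 to 0.34 for Gpc4, -0.13 to 0.14 for Sulf2 and -0.42 to 0.15 for Hs6st2. Gpc2, Gpc3, Hs3st4 and Ndst3 are at the limit of depth, and p-values from 5 libraries cannot show small changes.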
